A study of Gallus gallus with 25 samples.

Results

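Gonads of male chicken embryos were compared between embryonic day (E) 6.5 and E5.5 by their microRNA levels. The 6 arrays used were chosen by their labels, out of 25 in the series: Male E6.5 replicates 2, 3 and 6 (Hamburger and Hamilton stages 29 to 30) and Male E5.5 replicates 2, 3 and 6 (stages 27 to 28), all hybridised on chip 4011845 and paired by replicate number. No treatment, transgene or genotype is given for either group. Each array held 500 ng of the small RNA fraction, under 200 nt, from pooled gonads of embryos sexed by PCR on hind-limb tissue, per the labels' protocols. Pooling hides the spread between embryos. By the series' design text the arrays are biological replicates, but how many embryos went into a pool is not given in the labels, so p-values measure only the spread between these arrays. Each sample carried a single dye, Cy5, coupled to its guanines, which favours G-rich miRNAs. The other 12 arrays of this chip hold female or E9.5 gonads, and 4 further male arrays of the same stages (replicates 1-1 and 1-2) were run on chip 50636.

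A microRNA is a short RNA that pairs with messenger RNAs through its seed, bases 2 to 8 from its 5′ end, and lowers their stability or translation, so miRNAs of 1 seed form a family with overlapping targets. The gonad of a chicken embryo is at first alike in both sexes, and E5.5 and E6.5 lie around the onset of its differentiation, when supporting cells of the male gonad begin to form the testis cords. Of the miRNAs followed here, miR-202 is known from the developing testis of chicken and mouse, the miR-17-92 cluster favours proliferation and survival of progenitor cells, and let-7, miR-30, miR-26 and miR-125 are associated with differentiated cells.

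The array carries 657 probes for mature miRNAs, each a DNA strand complementary to the miRNA, and 107 of them were bright enough to test (above the 95th percentile of the 7 negative controls of the array on at least 3 of the 6 arrays), 34 of these with a chicken name (gga). Probes named for zebrafish (dre), human (hsa), mouse (mmu) or rat (rno) read whatever chicken RNA binds them. The probe sequences below, taken from the deposited scanner tables, belong to the probes with the lowest p-values and to the near-identical probes they are set against. They are written 5′ to 3′, and capitals mark the 7 letters that pair with the seed. Probes for miR-23 share 1 seed complement and differ by 1 extra letter at the 5′ end or by 1 letter inside.
dre-miR-23a: tggaaatccctggcAATGTGAt
hsa-miR-23a: ggaaatccctggcAATGTGAt
dre-miR-23b: tggtaatccctggcAATGTGAt
gga-miR-23b: ggtaatccctggcAATGTGAt
The miR-202 probes differ by C12T, counted from the 5′ end of the probe, with the base of dre-miR-202 first.
gga-miR-202: ttttcccatgctctATGCCTCt
dre-miR-202: ttttcccatgccctATGCCTCt
Probes of the miR-17 seed (miR-106 and miR-20a) share their capitals, whereas miR-19b of the same clusters has another seed.
hsa-miR-106a: gctacctgcactgtaaGCACTTTt
gga-miR-106: tacctgcactgtaaGCACTTTt
gga-miR-20a: ctacctgcactataaGCACTTTa
gga-miR-19b: tcagttttgcatggaTTTGCACa
For miR-30c and miR-204, the first probe of each pair is the second with 1 letter more at its 5′ end.
gga-miR-30c: gctgagagtgtaggaTGTTTACa
dre-miR-30c: ctgagagtgtaggaTGTTTACa
mmu-miR-204: caggcataggatgacAAAGGGAa
gga-miR-204: aggcataggatgacAAAGGGAa
The 4 probes with the lowest p-values among those lower at E6.5 all carry names of mammals and have 4 different seeds.
rno-miR-327: accctcatgccCCTCAAGg
hsa-miR-422b: ggccttctgactccAAGTCCAg
hsa-miR-373*: ggaaagcgcccccaTTTTGAGt
hsa-miR-370: ccaggttccacccCAGCAGGc

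Signal differed between the arrays within a stage as well as between stages. On the E6.5 arrays 90, 112 and 138 of the mature probes lay above the negative controls (replicates 2, 3 and 6), against 51, 126 and 87 on the E5.5 arrays. Median foreground intensities ran between 96 and 137 at E6.5 and between 127.25 and 152.5 at E5.5, so most probes sat close to the floor of the scanner. Exposure times were 0.5, 1 and 1 s at E6.5 against 0.5, 2 and 2 s at E5.5, so that the stages shared an exposure in pair 2 only. Among the 100 brightest mature probes of each array, 97, 97 and 99 outshone their partner with 2 mismatched bases at E6.5, against 96 on each E5.5 array. All levels given here are quantile-normalised log2 intensities, and differences are E6.5 minus E5.5 on that scale. Within pairs, levels correlated across the tested probes at 0.88, 0.82 and 0.83 (over the tested probes with a value on both arrays of the pair, a description only, since probes share their array).

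No miRNA probe passed the test between E6.5 and E5.5. At a Benjamini-Hochberg adjusted p under 0.05 in limma's paired fit, 0 of 107 probes were called (0%), and the smallest adjusted p was 0.486, shared by 9 probes. At an unadjusted p under 0.05 there were 9 probes (8.41%), of which 5 were higher at E6.5 (4.67%) and 4 lower (3.74%). Scaling each array to its 75th percentile instead left 0 calls and put 15 of 16 such probes on the higher side, with the median of all tested probes at 0.26. In the paired fit the higher ones were dre-miR-23a, dre-miR-23b, gga-miR-202, gga-miR-19b and hsa-miR-106a, and the lower ones rno-miR-327, hsa-miR-422b, hsa-miR-373* and hsa-miR-370. Of these, gga-miR-19b was bright enough to test only through its E6.5 arrays. Differences were small throughout: their median absolute size was 0.22, below the median standard error of 0.27, and dre-miR-23a alone reached an absolute difference of 1. The 95% interval of a difference extended a median of 0.62 to either side, and for 40 of the 107 probes it still reached a 2-fold change (1 on the log2 scale). The fitted difference was above 0 for 66 probes (61.7%) and below 0 for 41, with a median of 0.09. This lean depended on the filter and on the pairs. The median was -0.0075 with no filter on dim probes and 0.024 for probes above the negative controls on all 6 arrays. Without replicates 2, 3 and 6 in turn it was -0.034, 0.16 and 0.17. Of the tested probes with a value on every array, 22 were higher at E6.5 in 3 of 3 pairs (20.8%) and 11 lower in 3 of 3 pairs (10.4%). For 2 probes all E6.5 arrays lay above all E5.5 arrays (1.89%), and for 1 all lay below (0.943%).

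**Figure D1:**
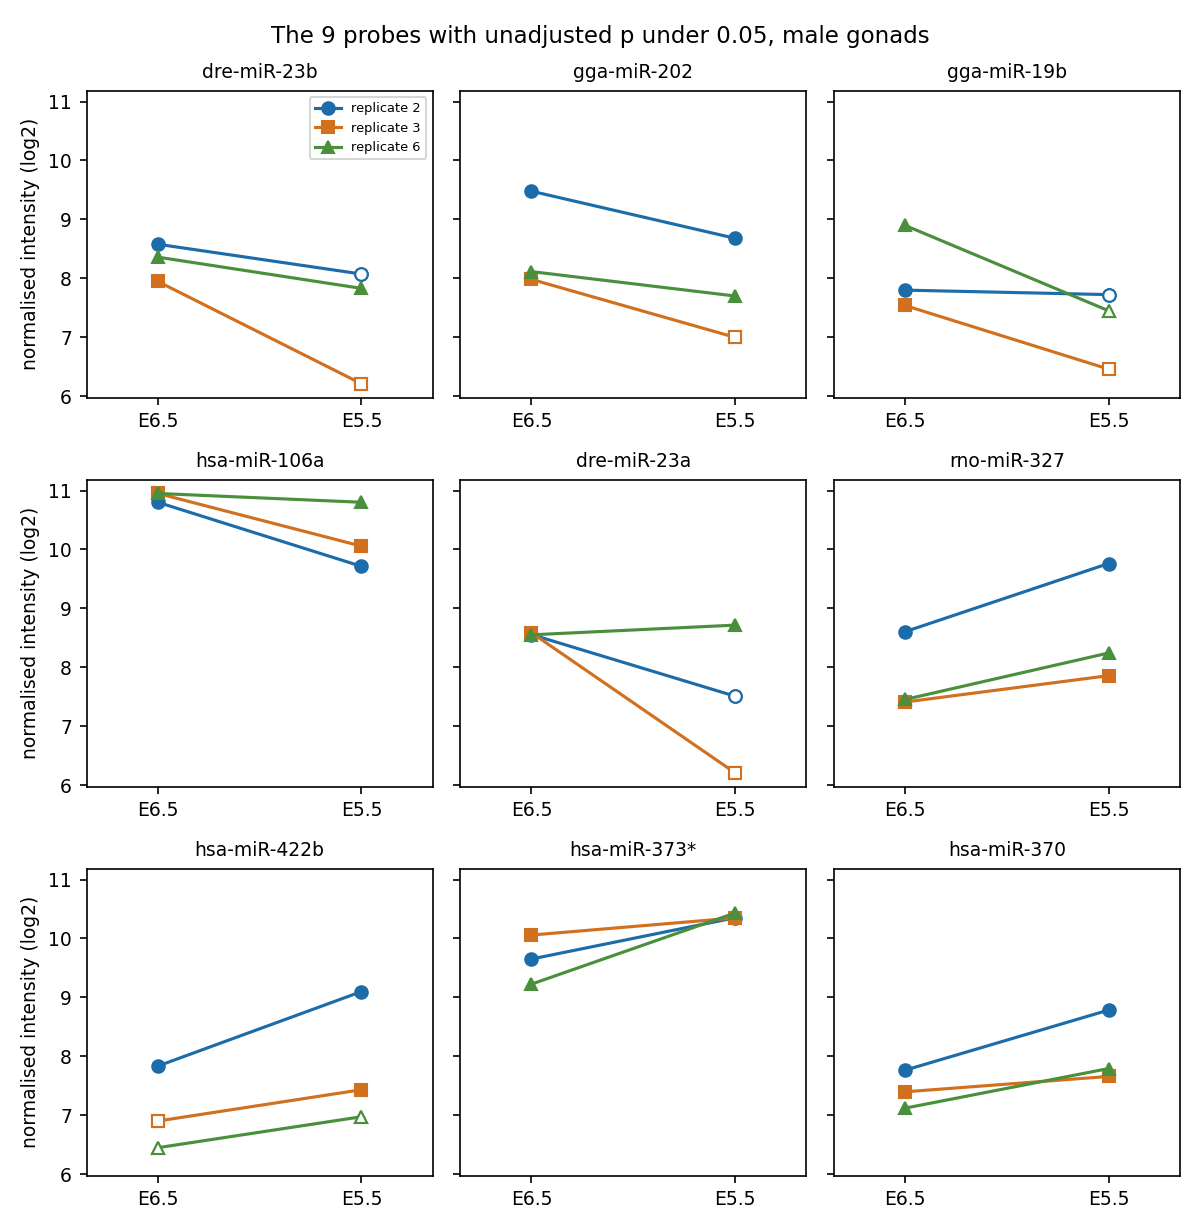
Normalised log2 intensity (y axis) of the 9 probes with an unadjusted p under 0.05, with E6.5 left of E5.5 and a line for each replicate number. Open symbols mark arrays on which the probe did not exceed the negative controls. The lines of dre-miR-23a and gga-miR-19b differ most between replicates. Replicate 2 lies highest at both stages for dre-miR-23b, gga-miR-202, rno-miR-327, hsa-miR-422b and hsa-miR-370.

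The gonadal miRNA miR-202 was read by 2 tested probes. The chicken probe gga-miR-202 had 9.48, 7.98 and 8.11 on the E6.5 arrays, against 8.68, 7.00 and 7.70 on the E5.5 arrays (replicates 2, 3 and 6, the order used throughout). It was higher at E6.5 in every pair, by 0.80, 0.98 and 0.41, yet replicate 2 at E5.5 lay above replicates 3 and 6 at E6.5, so the stages overlapped. On E5.5 replicate 3 it did not exceed the negative controls, so the largest pair difference, 0.98, rests partly on dim signal. The fitted difference was 0.73 (SE 0.26, 95% interval 0.14 to 1.33, limma adjusted p = 0.486). The zebrafish probe dre-miR-202, which differs by C12T, gave 9.15, 7.76 and 7.83 on the E6.5 arrays, against 8.82, 7.64 and 7.83 on the E5.5 arrays. Its difference was 0.15 (SE 0.25), so the lead of the chicken probe over it was 0.58 on the log2 scale. Both probes had 2 spots on each array. The opposite strand of the precursor, gga-miR-202*, did not exceed the negative controls on any of the 6 arrays. The human and mouse miR-202 probes did so on 2 arrays each and were not tested.

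Other miRNAs associated with gonads (miR-140, miR-204, miR-383, miR-224, miR-21 and miR-22, with miR-202) had 8 tested probes of 22 on the array. Of these, 6 were higher at E6.5 and 2 lower (61.7% of all tested probes were higher). None passed the test, and their median difference was 0.30 beside 0.09 over all tested probes. The largest was mmu-miR-204, which targets the same sites as miR-211 in mammals and had 7.53, 8.28 and 7.28 on the E6.5 arrays, against 6.12, 6.92 and 7.75 on the E5.5 arrays. Its pair differences of 1.40, 1.36 and -0.48 did not share a sign, and the fitted value was 0.76 (SE 0.39, adjusted p = 0.544). On E5.5 replicates 2 and 3 it did not exceed the negative controls, so the differences of these pairs rest partly on dim signal. The chicken probe gga-miR-204, 1 letter shorter, gave a difference of 0.42 (SE 0.27). The miR-140* probes, for the strand named with a star of a miRNA best known from cartilage, were among those with the largest spread between replicate numbers, described below.

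The largest difference belonged to miR-23, which is transcribed together with miR-27 and miR-24 (in the GRCg7b gene table MIR23B, MIR27B and MIR24-2 are neighbours) and is known in mammals for roles in blood vessels. The probe dre-miR-23a had 8.56, 8.59 and 8.55 on the E6.5 arrays, against 7.51, 6.21 and 8.72 on the E5.5 arrays. Its E6.5 arrays were nearly equal, and the difference came from E5.5 replicates 2 and 3, whereas in pair 6 E6.5 was the lower one. The fitted difference was 1.09 (SE 0.44, 95% interval 0.08 to 2.09, adjusted p = 0.486). The probe dre-miR-23b had 8.58, 7.95 and 8.36 on the E6.5 arrays, against 8.07, 6.21 and 7.83 on the E5.5 arrays, higher at E6.5 in all 3 pairs. Its fitted difference was 0.92 (SE 0.32, adjusted p = 0.486). Both probes exceeded the negative controls on 3 E6.5 arrays and on 1 E5.5 array. Without replicate 3 the differences were 0.44 and 0.52. When the signal of the mismatch partners was subtracted, both passed the test together with gga-miR-30c, at 1.28 (dre-miR-23a), 1.19 (dre-miR-23b) and 1.17 (gga-miR-30c) with adjusted p-values between 0.022 and 0.025, the only calls under any setting. That setting took log2 ratios without quantile normalisation. Of its 17 probes with an unadjusted p under 0.05, 16 lay above 0, and the median over all tested probes was 0.21. Its standard error was 0.34 for each of dre-miR-10a, dre-miR-130a and dre-miR-130b, against 0.27, 0.25 and 0.31 in the paired fit. Equal standard errors mean that limma gave the probes 1 pooled variance there, so the 3 calls do not rest on each probe's own spread. In the paired fit, gga-miR-30c had a standard error of 0.43, beside the 0.44 and 0.32 given above for dre-miR-23a and dre-miR-23b.

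Probes that hold the same letters but for 1 at the 5′ end did not show these differences, a contrast noticed after the values were seen. The probe hsa-miR-23a, contained in dre-miR-23a, had 8.17, 8.43 and 8.30 on the E6.5 arrays, against 8.37, 8.30 and 8.48 on the E5.5 arrays, a difference of -0.08 (SE 0.25). The probe gga-miR-23b, contained in dre-miR-23b, had 7.90, 7.88 and 7.76 on the E6.5 arrays, against 8.04, 7.76 and 7.67 on the E5.5 arrays, a difference of 0.02 (SE 0.25). On E5.5 replicate 3, dre-miR-23a and dre-miR-23b both had a foreground median of 156, under the negative control level of 216 there, while hsa-miR-23a had 445 on the same array. The 2 zebrafish probes had 1 spot per array and the 2 shorter ones 2 spots. For the whole list of miR-23, miR-24, miR-27 and miR-31, 5 of 7 tested probes were higher at E6.5, 1 of them in all 3 pairs, with a median of 0.09. Of all tested probes 61.7% were higher, and of those with a value on every array 20.8% were so in all 3 pairs. Across all tested probes, 24 pairs were nested, the longer probe holding the shorter one with 1 to 3 further letters at its ends, and their differences lay a median of 0.23 apart. In 10 of the 24 pairs the 2 probes differed in sign, and in 8 they lay more than 0.5 apart. Of the 42 tested probes with 1 spot, 5 had an unadjusted p under 0.05 (11.9%), against 4 of the 65 with 2 spots (6.15%).

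**Figure D2:**
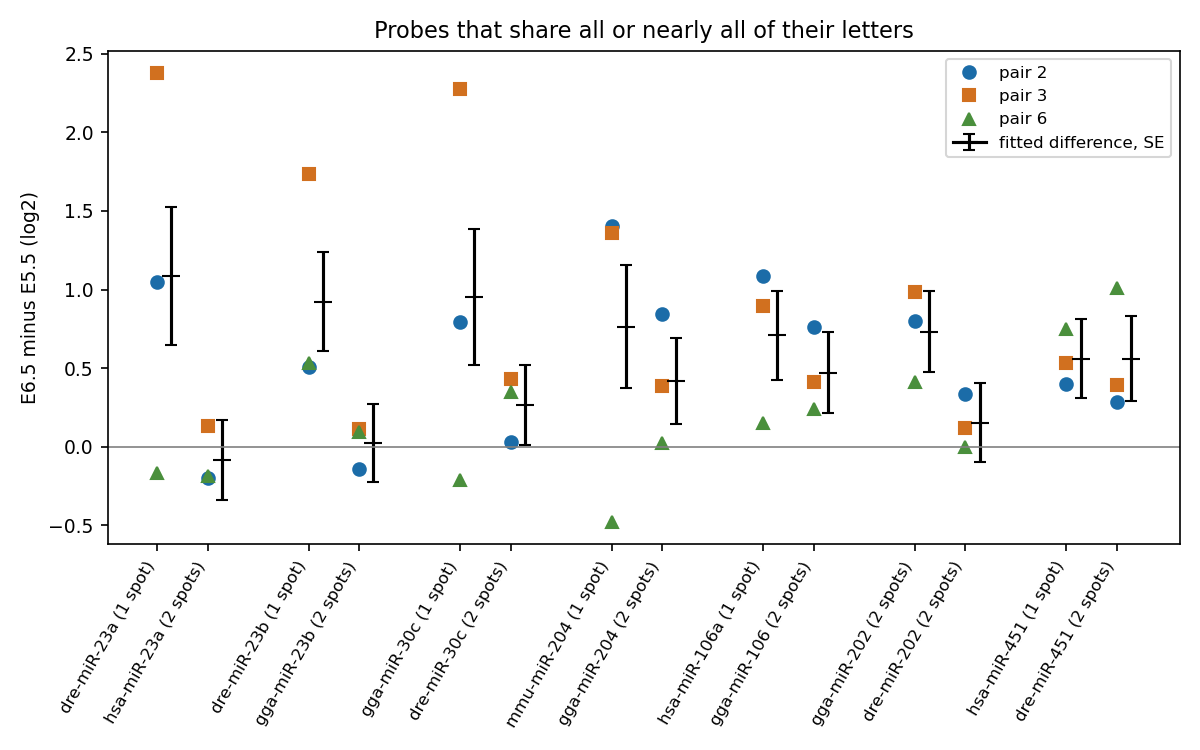
Differences of E6.5 minus E5.5 (log2, y axis) for 7 couples of probes that share all or nearly all of their letters. Coloured symbols are the 3 pairs, and the black bar is the fitted difference with its standard error. For miR-23a, miR-23b and miR-30c the single-spot probe, at left in each couple, lies 0.69 or more above its partner, with the largest gap in pair 3, while both miR-451 probes sit at 0.56.

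The miR-17-92 cluster and its paralogs, which promote proliferation and repress inhibitors of growth in mammals, had 18 tested probes of 31 on the array. Of these, 13 were higher at E6.5 and 5 lower, 7 were higher in all 3 pairs and none lower in all 3, and 2 had an unadjusted p under 0.05. These 2 were hsa-miR-106a and gga-miR-19b, the latter bright enough to test only through its E6.5 arrays. Over all tested probes 61.7% were higher and 8.41% had an unadjusted p under 0.05. Of those with a value on every array, 20.8% were higher in all 3 pairs and 10.4% lower. Several of the 18 probes are nested or differ by 1 letter, so they are not separate readings. The median of the 18 was 0.19, and their medians within pairs 2, 3 and 6 were 0.22, 0.00066 and 0.37. None passed the adjusted test. The gene table places MIR17, MIR18A, MIR19A, MIR20A, MIR19B1 and MIR92A1 next to each other, and MIR106A, MIR18B, MIR20B, MIR19B-2, MIR92-2 and MIR363 likewise.

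The gene table gives gga-miR-19b and gga-miR-92 a gene in each of the clusters, so their probes cannot be placed in 1 of them. The probe gga-miR-19b had 7.80, 7.54 and 8.90 on the E6.5 arrays, against 7.72, 6.46 and 7.45 on the E5.5 arrays. It exceeded the negative controls on all E6.5 arrays and on none of the E5.5 arrays. It was thus tested only through its E6.5 arrays, and its p-value lends the difference no support. Its difference has only a bound: with each E5.5 array set to at least its dimmest detected probe, the E6.5 mean was at least 1.37-fold higher. The bound itself was not tested, and the measured difference did not pass (limma adjusted p = 0.486). That bound is on the means over arrays and does not hold in each pair. From the measured levels the pair differences were 0.08, 1.08 and 1.45, with almost none in pair 2, and the fitted value was 0.87 (SE 0.32, 95% interval 0.14 to 1.60). Of the first cluster, gga-miR-20a had 9.23, 8.95 and 9.33 on the E6.5 arrays, against 8.27, 8.26 and 9.16 on the E5.5 arrays. It was higher at E6.5 in every pair, by 0.61 in the fit (SE 0.27, adjusted p = 0.513), although E5.5 replicate 6 lay above E6.5 replicate 3. The probe gga-miR-17-5p was among the brightest of all, with 10.95, 10.80 and 10.80 on the E6.5 arrays, against 10.80, 10.80 and 10.95 on the E5.5 arrays, a difference of -0.00032. Quantile normalisation gives the brightest probes of every array the same few values, so differences at the top of the scale are compressed. The probe gga-miR-92 had 8.87, 9.71 and 9.45 on the E6.5 arrays, against 8.13, 10.43 and 9.71 on the E5.5 arrays, where the pair differences of 0.74, -0.72 and -0.27 changed sign.

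Among probes named for members of the second cluster, hsa-miR-106a had 10.80, 10.95 and 10.95 on the E6.5 arrays, against 9.71, 10.06 and 10.80 on the E5.5 arrays. Its difference was 1.09, 0.89 and 0.15 in the pairs and 0.71 in the fit (SE 0.28, adjusted p = 0.486). All E6.5 arrays but replicate 2, which was level with E5.5 replicate 6, lay above the E5.5 arrays. The chicken probe gga-miR-106 gave 10.35, 10.35 and 10.59 on the E6.5 arrays, against 9.59, 9.93 and 10.35 on the E5.5 arrays, and its difference of 0.47 (SE 0.26) also had 1 sign in all pairs. The probe gga-miR-20b, with 10.59, 10.12 and 10.06 on the E6.5 arrays, against 10.24, 9.71 and 10.12 on the E5.5 arrays, differed by 0.23 (SE 0.26). The remaining tested probes of both clusters lay between -0.36 (dre-miR-20b) and 0.52 (dre-miR-17a).

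No probe of the families linked to differentiation was called, and their signs are to be read beside the 61.7% of all tested probes above 0. All 3 tested miR-30 probes of 11 on the array were higher at E6.5, with a median of 0.46. The probe gga-miR-30c had 7.31, 8.78 and 8.33 on the E6.5 arrays, against 6.51, 6.50 and 8.54 on the E5.5 arrays, where pair 3 differed by 2.28 and pair 6 lay the other way, and its fitted value was 0.95 (SE 0.43, adjusted p = 0.513), or 0.29 without replicate 3. On E5.5 replicates 2 and 3 and on E6.5 replicate 2, gga-miR-30c did not exceed the negative controls. The nested probe dre-miR-30c differed by 0.27 (SE 0.25). The probe gga-miR-30a-5p had 7.86, 8.17 and 8.03 on the E6.5 arrays, against 7.31, 7.60 and 7.77 on the E5.5 arrays, so that all E6.5 arrays lay above all E5.5 arrays, by 0.46 in the fit (SE 0.25, adjusted p = 0.553). The let-7 family is known for its rise as embryonic cells mature in worm and mammals. Of the 19 probes named for let-7 or miR-98, star strands included, 4 were tested. The 3 for let-7 itself were higher, and mmu-let-7d*, for the opposite strand of a let-7 precursor, was lower. The probe gga-let-7a had 7.49, 7.51 and 8.52 on the E6.5 arrays, against 7.18, 7.35 and 7.16 on the E5.5 arrays, so that all E6.5 arrays lay above all E5.5 arrays, replicate 6 by most, and differed by 0.61 (SE 0.31, adjusted p = 0.544). It exceeded the negative controls on 2 E6.5 arrays and 1 E5.5 array, so the order of the arrays rests partly on dim signal. Its value was 0.24 without replicate 6, 0.30 with the line on G and C content taken off and 1.36 with the series table values. Its relative gga-let-7c differed by 0.35 (SE 0.26) and mmu-let-7d* by -0.08. The probe gga-let-7b exceeded the negative controls on 3 E6.5 arrays and on no E5.5 array, so it was tested only through its E6.5 arrays. It had 7.70, 7.25 and 7.15 on the E6.5 arrays, against 7.46, 6.86 and 7.43 on the E5.5 arrays, where the stages overlapped.

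Of the 3 tested miR-26 probes 1 was higher and the median was -0.04. The probe dre-miR-26a had 8.96, 10.43 and 10.23 on the E6.5 arrays, against 8.40, 9.45 and 10.06 on the E5.5 arrays and differed by 0.57 (SE 0.27, adjusted p = 0.541). The chicken probe gga-miR-26a, nested in it, gave 8.40, 9.09 and 9.76 on the E6.5 arrays, against 9.07, 9.65 and 9.04 on the E5.5 arrays, a difference of -0.17 (SE 0.33), and dre-miR-26b differed by -0.04. The 2 probes nested in each other thus stood on opposite sides of 0. Of the 6 tested probes of miR-99, miR-100 and miR-125, miRNAs that lie beside let-7 genes in vertebrates, 4 were higher, led by gga-miR-125b at 0.38 (SE 0.28) and gga-miR-100 at 0.26 (SE 0.26). The 4 miR-181 probes stayed between -0.18 (hsa-miR-181d) and 0.17 (gga-miR-181b), with gga-miR-181a at 0.12 and dre-miR-181c at 0.08. The miR-221 and miR-222 probes differed by 0.26 (gga-miR-222a), 0.23 (gga-miR-222b), 0.03 (mmu-miR-221) and -0.02 (gga-miR-221). For miR-130 the values were 0.25 (gga-miR-130a), 0.24 (dre-miR-130a), 0.10 (dre-miR-130b) and -0.21 (gga-miR-130b). The probes gga-miR-15b and gga-miR-16, of a family that slows the cell cycle in mammals, differed by 0.04 and -0.0035, and the Hox cluster probes hsa-miR-10a and dre-miR-10a by -0.38 and -0.01. Standard errors of the probes in these last 5 families ran from 0.25 to 0.31, so none of these values stood apart from 0. Under 75th percentile scaling gga-miR-26a, dre-miR-26b, hsa-miR-181d, gga-miR-221, gga-miR-16, dre-miR-10a and mmu-let-7d* came out above 0, between 0.02 and 0.20.

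**Figure D3:**
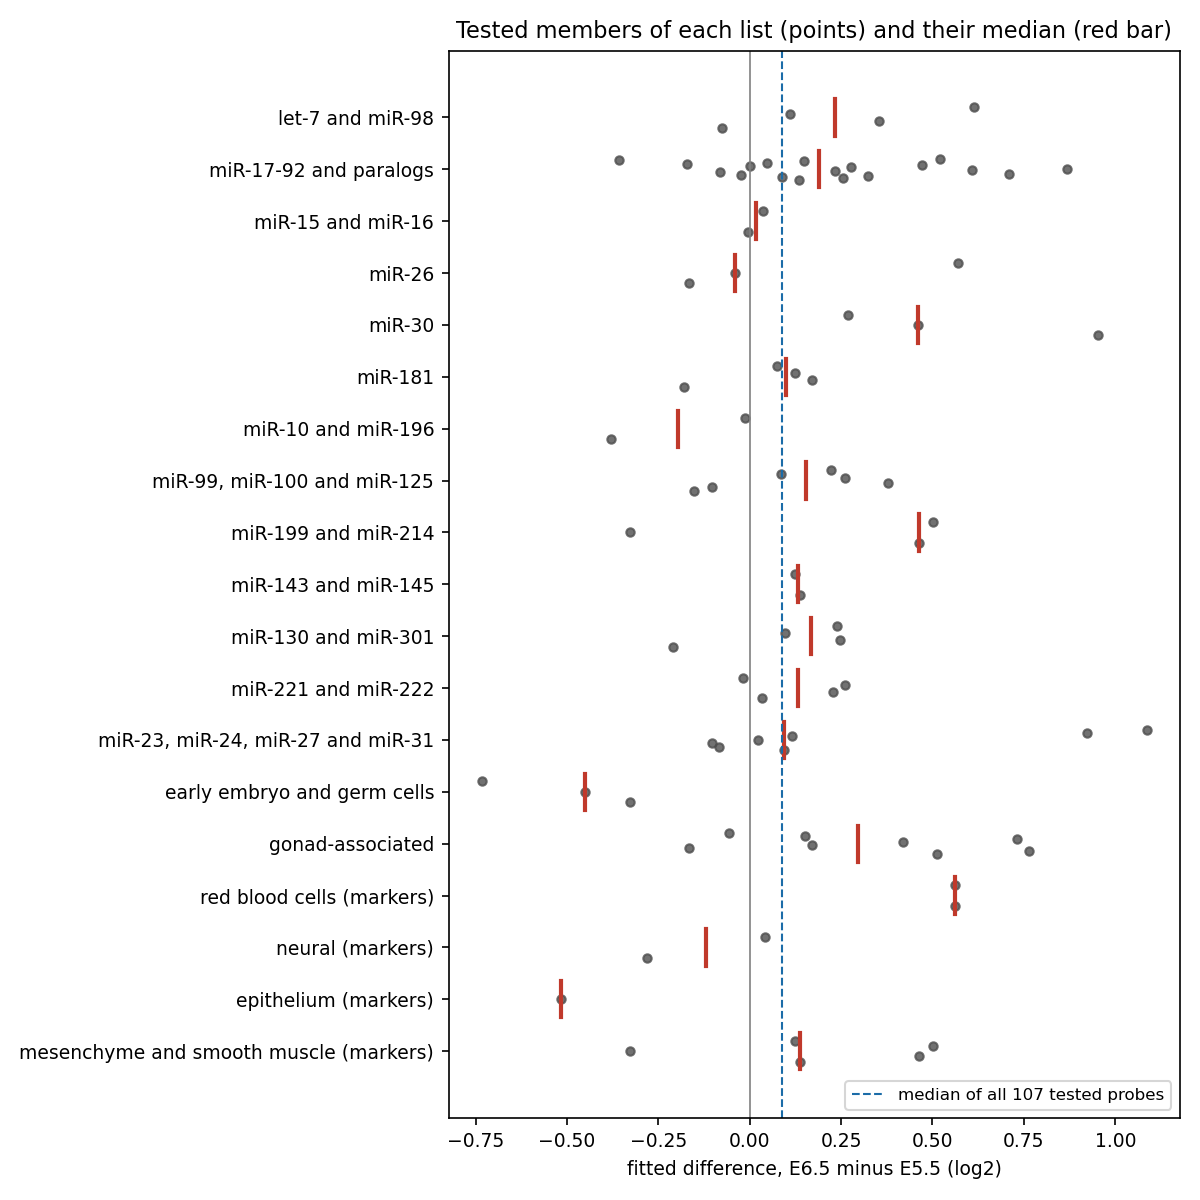
Fitted difference of E6.5 minus E5.5 (log2, x axis) of each tested probe (points) by miRNA list, with the list's median as a red bar and the median of all 107 tested probes as a dashed line. The miR-30, miR-199 and miR-214, gonad-associated and red blood cell lists have medians between 0.30 and 0.56, and the 3 early embryo probes lie between -0.73 and -0.33.

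The miRNAs miR-199 and miR-214, which are made from 1 transcript in mouse mesenchyme, were read by 3 tested probes that differed in sign. The probe dre-miR-199* had 7.71, 8.59 and 8.77 on the E6.5 arrays, against 7.50, 8.19 and 7.88 on the E5.5 arrays and gga-miR-199a had 8.01, 8.47 and 8.63 on the E6.5 arrays, against 7.79, 8.21 and 7.72 on the E5.5 arrays. Both were higher at E6.5 in all 3 pairs, by 0.50 (SE 0.27) and 0.46 (SE 0.27) in the fit, with adjusted p-values of 0.553 and 0.603, and by 0.31 and 0.24 without replicate 6. The probe dre-miR-214 had 8.98, 7.90 and 7.36 on the E6.5 arrays, against 9.28, 8.03 and 7.91 on the E5.5 arrays, lower at E6.5 in all 3 pairs, by -0.33 (SE 0.25, adjusted p = 0.798). For miR-145, a smooth muscle miRNA, hsa-miR-145 and dre-miR-145 differed by 0.14 and 0.12, with pair differences of 0.66, 0.0013 and -0.25 and 0.74, -0.04 and -0.33.

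The probes with the lowest p-values among those lower at E6.5 were named for mammalian miRNAs. The probe rno-miR-327 had 8.60, 7.41 and 7.45 on the E6.5 arrays, against 9.76, 7.86 and 8.24 on the E5.5 arrays. It was lower at E6.5 in each pair, by -0.80 in the fit (SE 0.27, 95% interval -1.41 to -0.19, adjusted p = 0.486), although E6.5 replicate 2 lay above E5.5 replicates 3 and 6. The probe hsa-miR-422b had 7.84, 6.90 and 6.45 on the E6.5 arrays, against 9.10, 7.43 and 6.97 on the E5.5 arrays and exceeded the negative controls on 1 E6.5 array and 2 E5.5 arrays. Its difference was -0.77 (SE 0.27, adjusted p = 0.486). The probe hsa-miR-370, named for a miRNA of the imprinted DLK1 region of mammals, had 7.76, 7.40 and 7.12 on the E6.5 arrays, against 8.78, 7.66 and 7.79 on the E5.5 arrays and differed by -0.65 (SE 0.27, adjusted p = 0.486). For these 3 probes the gap between replicate 2 and the other pairs, averaged over both stages, exceeded the stage difference in the fit. Other named probes in this direction were gga-miR-205b at -0.52, mmu-miR-290 at -0.45, hsa-miR-519e* at -0.44, mmu-miR-341 at -0.38 and mmu-miR-124a at -0.28, with adjusted p-values between 0.544 and 0.875.

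The probe hsa-miR-373*, passenger strand of a miRNA of human embryonic stem cells, had 9.65, 10.06 and 9.23 on the E6.5 arrays, against 10.35, 10.35 and 10.43 on the E5.5 arrays. All E6.5 arrays lay below all E5.5 arrays, the only probe of which this held. The fitted difference was -0.73 (SE 0.28, adjusted p = 0.486). Its E5.5 arrays lay close together, and the spread between replicates was at E6.5. It belongs to the list of early embryo and germ cell miRNAs (miR-302, miR-367, miR-371 to miR-373, miR-427, miR-430 and the mouse miR-290 to miR-295), of which 3 of 35 probes were tested, 28 never exceeded the negative controls, and all 3 tested were lower at E6.5 (median -0.45). The other two, mmu-miR-290 and mmu-miR-292-5p, read 9.10, 8.87 and 7.92 on the E6.5 arrays, against 9.23, 8.63 and 9.38 on the E5.5 arrays, and 9.38, 9.76 and 8.13 on the E6.5 arrays, against 9.45, 9.37 and 9.43 on the E5.5 arrays. Both were lower by over 1 in pair 6 and within 0.39 of 0 in the other pairs. All 3 are probes for mammalian sequences, and the chicken miR-302 and zebrafish miR-430 probes were not bright enough to test. Among all 107 tested probes, 41 were lower at E6.5.

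By name, the tested chicken probes leaned to higher values at E6.5 and the human ones to lower values. Of 34 chicken probes 25 were higher (median 0.20), as were 20 of 27 zebrafish probes (median 0.11), against 8 of 20 human probes (median -0.22) and 7 of 18 mouse probes (median -0.05). Over all tested probes 61.7% were higher. These counts carry no test, and probes of 1 family share much of their sequence.

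Markers of other cell types were read from the same arrays. Of the 4 probes for the red blood cell miRNAs miR-451 and miR-144, the 2 for miR-451 were tested. The probe hsa-miR-451 had 6.97, 8.36 and 7.90 on the E6.5 arrays, against 6.57, 7.83 and 7.15 on the E5.5 arrays and dre-miR-451 had 6.75, 7.73 and 7.69 on the E6.5 arrays, against 6.47, 7.34 and 6.68 on the E5.5 arrays. Both were higher at E6.5 in all 3 pairs, by 0.56 (SE 0.25) and 0.56 (SE 0.27) in the fit, with adjusted p-values of 0.513 and 0.541. In pair 2 neither probe exceeded the negative controls on either array, and in pair 6 neither did so on the E5.5 array. With the line on G and C content taken off (described below) the values were 0.21 and 0.24, with the series table values 1.37 and 2.50, and without replicate 6 they were 0.47 and 0.34. The series table takes a constant off each array, and dre-miR-451 lay close to it at E5.5. Its foreground was 198.25 against a constant of 190.5 in replicate 6, and 143 against 149.2 in replicate 2. On E5.5 replicate 2 hsa-miR-451, at 147, also lay below the constant, so pair 2 gave no log2 difference for either probe. The values of 1.37 and 2.50 thus rest on pairs 3 and 6 only, and 2.50 rests on signal near the floor. The probes for miR-144 never exceeded the negative controls, and the summed linear intensity of the 4 probes was 343 to 658 at E6.5 and 292 to 508 at E5.5. None of the 10 white blood cell probes, 12 striated muscle probes or 2 liver probes exceeded the negative controls on any array, and of the 2 for endothelial miR-126, 1 did so on a single E6.5 array. Summed intensities were 574 to 751 at E6.5 and 621 to 1053 at E5.5 for white blood cells, 787 to 811 at E6.5 and 802 to 908 at E5.5 for striated muscle, 151 to 172 at E6.5 and 130 to 174 at E5.5 for liver and 162 to 252 at E6.5 and 155 to 185 at E5.5 for endothelium. Neural markers had 2 tested probes of 16, mmu-miR-124a at -0.28 and gga-miR-124a at 0.04, with sums of 1456 to 1848 at E6.5 and 1508 to 2024 at E5.5. Epithelial markers had 1 of 17, gga-miR-205b, which had 6.95, 7.43 and 7.58 on the E6.5 arrays, against 7.09, 8.23 and 8.19 on the E5.5 arrays and differed by -0.52 (SE 0.26), with sums of 1171 to 1345 at E6.5 and 1358 to 1437 at E5.5. Mesenchymal and smooth muscle markers had 5 of 9, described above, with sums of 1996 to 2633 at E6.5 and 1782 to 2505 at E5.5. In pooled tissue, more cells of a type and more RNA per cell cannot be told apart, and the part of red blood cells in the other differences was not tested.

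In the paired fit, replicate numbers separated more probes than stage did. Here 34 of 107 probes were called between replicate numbers (31.8%, limma's moderated F-test, adjusted p under 0.05), and 48 had an unadjusted p under 0.05 (44.9%), against 0 calls between stages. For 79 of the 107 probes the SD over the 3 pair means exceeded the absolute stage difference, and the median SD over pair means was 0.48. Same-numbered arrays deviated from their stage means together, with correlations of 0.71 for replicate 2, 0.76 for replicate 3 and 0.31 for replicate 6 (over the tested probes with a value on both arrays of the pair). Replicate 2 was the extreme one: of the 34 probes, 14 were highest and 16 lowest in replicate 2 at both stages. Both replicate 2 arrays were exposed for 0.5 s, and the other arrays for 1 or 2 s. Their highest foreground over all probes, controls included, was 28299.5 (E6.5) and 16518.5 (E5.5), against 3000.75 to 4291.25 on the other arrays. The miRNA probes went the other way. The brightest tested one read 1380.5 (E6.5) and 1401.5 (E5.5) in replicate 2, against 1636 to 3361 on the other arrays. Replicate 2 and its exposure therefore cannot be told apart here, whereas replicates 3 and 6 shared their exposures at each stage. The probes hsa-miR-494 and mmu-miR-494 averaged 10.07 and 10.26 in pair 2 against 7.63 and 7.84 in pair 3 (adjusted p = 0.0269 for each), and dre-miR-140* averaged 9.87 against 8.16. The other way, dre-miR-125c averaged 7.36 in pair 2 against 9.35 in pair 3, and gga-miR-125b 8.69 against 10.17. Of the probes with the lowest stage p-values, gga-miR-202, rno-miR-327 and hsa-miR-422b were also called between replicate numbers. These probes were chosen after their values were seen where they are outside the rule for named probes (both miR-494 probes, dre-miR-140* and dre-miR-125c). Leaving out replicate 2 or replicate 3 reduced the 34 calls to 0, with 1 pair fewer in the fit, and the values of the deposited series table, or no filter on dim probes, also gave 0, as many as between stages. In level, the E6.5 array of replicate 3 correlated with the E5.5 array of replicate 6 at 0.88, above the 0.82 with its own number, and both had array number 2 in the scanner tables, taken here as a position whose meaning the tables do not state. With array position as a block, the stage difference rests on these 2 arrays alone, and no probe was called. It was then -0.13 for dre-miR-23a, 0.12 for dre-miR-23b, 0.28 for gga-miR-202, 0.09 for gga-miR-19b, 0.15 for hsa-miR-106a, -0.83 for rno-miR-327, -0.07 for hsa-miR-422b, -0.37 for hsa-miR-373* and -0.39 for hsa-miR-370. No other position held both stages, so a value within each position cannot be had.

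**Figure D4:**
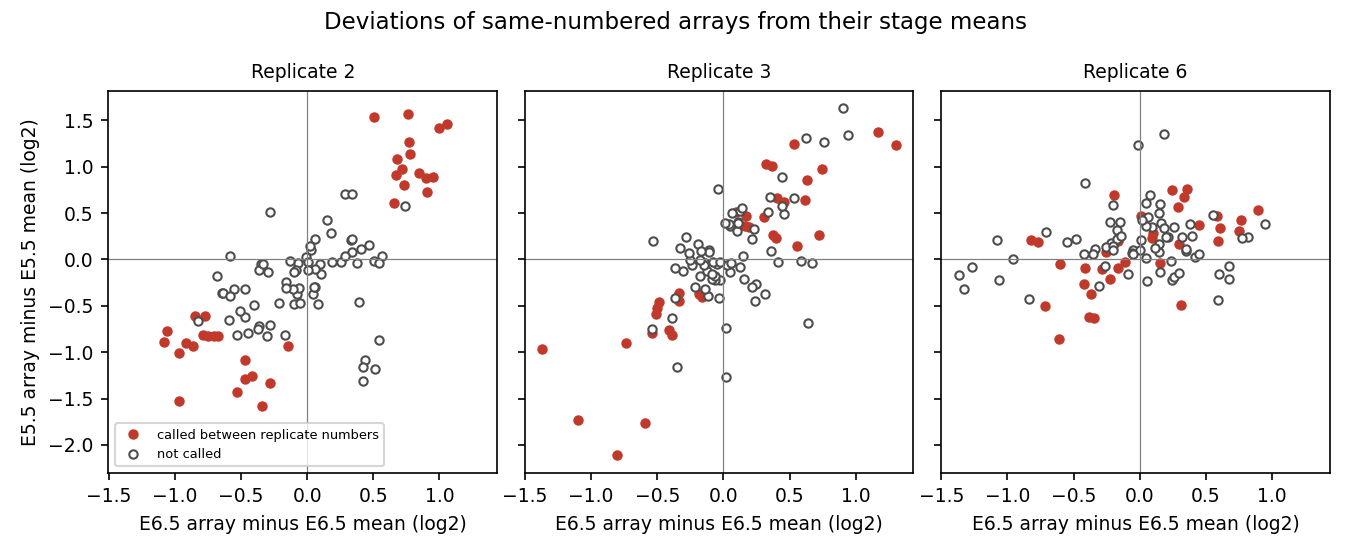
Deviation of each E6.5 array (x axis) and of the same-numbered E5.5 array (y axis) from the mean of its stage, in log2 units, for the tested probes with a value on every array. Filled points are probes called between replicate numbers. Points follow the diagonal for replicates 2 and 3 (r = 0.71 and 0.76) and less so for replicate 6 (r = 0.31), with r over the tested probes with a value on both arrays.

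Pairs disagreed on which probes differed most. The largest spread of pair differences was found for dre-miR-23a and for the probes of miR-346 and miR-211. The probe hsa-miR-346 had 8.71, 9.19 and 6.97 on the E6.5 arrays, against 7.29, 10.23 and 8.28 on the E5.5 arrays, with pair differences of 1.42, -1.04 and -1.31. The probes rno-miR-346 and mmu-miR-346 had pair differences of 1.45, -0.53 and -1.33 and 1.80, -0.41 and -1.08, and mmu-miR-211 and hsa-miR-211 of 1.64, 0.10 and -1.07 and 1.56, -0.65 and -0.81. All 5 were above 0 in pair 2 and below 0 in pair 6. Medians over the tested probes were 0.23 in pair 2, 0.03 in pair 3 and -0.094 in pair 6.

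The stage difference moved with the base composition of the probes. The 5 probes with the lowest p-values that were higher at E6.5 had 39.1% to 45.8% G and C, the 4 lower ones 54.5% to 71.4%, and the median of all tested probes was 47.8%. Across the 107 probes the fitted difference correlated with G and C content at -0.53 (a description, since probes share arrays and base composition). By pair, r was 0.04 in pair 2, -0.34 in pair 3 and -0.64 in pair 6. Pair 2 had equal exposure at both stages, and in pairs 3 and 6 the E5.5 array was exposed for 2 s and the E6.5 array for 1 s. On chip 50636, where exposures also differed (0.2 s at E6.5 against 0.5 s at E5.5, and 0.1 s against 0.2 s), r was 0.03 and -0.07. The mismatch partners of the tested probes, before quantile normalisation, gave 0.24, -0.40 and -0.39 in pairs 2, 3 and 6. In pairs 1-1 and 1-2 of chip 50636 they gave 0.24 and 0.33. Exposure cannot be told apart from pair here, and its part in these correlations was not tested. With a straight line on G and C content taken off each array, an alternative chosen after seeing the data, 0 probes were called. The differences were then 0.99 for dre-miR-23a, 0.83 for dre-miR-23b, 0.64 for gga-miR-202, 0.62 for gga-miR-19b, 0.63 for hsa-miR-106a, -0.46 for rno-miR-327, -0.53 for hsa-miR-422b, -0.60 for hsa-miR-373* and -0.11 for hsa-miR-370. Of these 9, hsa-miR-370 and rno-miR-327 moved by over 1.5 times.

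**Figure D5:**
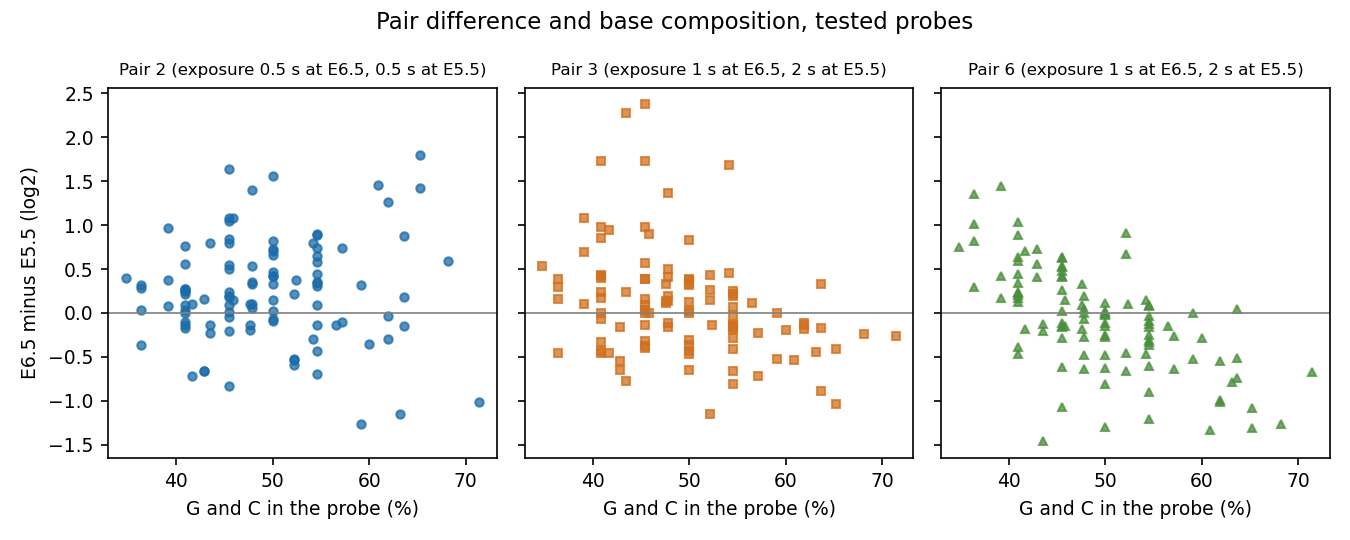
Difference of E6.5 minus E5.5 in each pair (log2, y axis) against the G and C content of the probe (%, x axis), for the tested probes. In pair 2, scanned at equal exposure, r across probes was 0.036. In pairs 3 and 6, where the E5.5 exposure was 2 s and the E6.5 exposure 1 s, it was -0.34 and -0.64. The part of exposure was not tested.

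The 2 male pairs of the other chip, 50636, were not used in the comparison. On their 4 arrays 83 to 85 of the 100 brightest mature probes outshone their mismatch partner, against 96 to 99 on the 6 arrays compared. Mismatch probes above the negative controls numbered 43 to 72 there, against 4 to 25, so exceeding these controls counts for less on chip 50636. The stage difference on chip 4011845 minus that on chip 50636 passed the test for 0 of 107 probes (0%, limma, smallest adjusted p = 0.809), with 4 at an unadjusted p under 0.05 (3.74%). The stage difference on chip 50636 was taken from the same limma fit, whose spread comes from the pairs of both chips. For it, 0 probes were called (0%, smallest adjusted p = 0.141), with 6 at an unadjusted p under 0.05 (5.61%). Of the 9 probes with the lowest p-values, hsa-miR-373* and hsa-miR-106a exceeded the negative controls on all 4 male arrays of these stages on chip 50636, dre-miR-23a on 1 and the other 6 on none, so most values below are differences of signal at the level of the negative controls and their signs carry little. The probe hsa-miR-373* differed by -1.18 and -1.03 in pairs 1-1 and 1-2, the direction found on chip 4011845, and hsa-miR-106a by 0.10 and -0.10. Of the probes not above the negative controls there, gga-miR-202 differed by 0.43 and 0.24, gga-miR-19b by 0.10 and 0.05, rno-miR-327 by -0.80 and -0.75 and hsa-miR-422b by -0.50 and -0.52. Likewise dre-miR-23b differed by -0.15 and -0.20 and hsa-miR-370 by 0.22 and -0.05, and dre-miR-23a, above the negative controls on 1 array, by -0.68 and 0.11. Of the 4 probes with an unadjusted p under 0.05 for the difference between chips, dre-miR-23b differed between chips by 1.08 (SE 0.40, adjusted p = 0.839) and mmu-let-7d* by -1.37 (SE 0.40, adjusted p = 0.809). The others, outside the rule for named probes, were hsa-miR-320 at 0.97 (SE 0.29, adjusted p = 0.809) and gga_candidate_dre_130c-1 at 1.61 (SE 0.62, adjusted p = 0.839). On chip 50636 hsa-miR-320 exceeded the negative controls on all 4 of these arrays. It differed by -1.28 and -1.21 in pairs 1-1 and 1-2, against -0.28 (SE 0.27) on chip 4011845. Whether replicates 1-1 and 1-2 came from separate pools is not given in the labels. Across the 107 probes the stage differences of both chips correlated at 0.20, again as a description.

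For the same probes, a fit over the 18 arrays of chip 4011845 gave the next step, E9.5 minus E6.5 in male gonads, which shares the E6.5 arrays with the comparison above. The differences were -0.43 for gga-miR-202 (adjusted p = 0.68), 0.27 for gga-miR-19b, -0.61 for hsa-miR-106a, 0.23 for dre-miR-23a and -0.30 for dre-miR-23b. They were -0.26 for rno-miR-327, -0.38 for hsa-miR-422b, 0.13 for hsa-miR-373* and 0.03 for hsa-miR-370, with adjusted p-values of the 9 between 0.578 and 0.985. In that fit, E6.5 minus E5.5 was 0.75 for gga-miR-202 and 1.06 for dre-miR-23a.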

How the data were processed

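The scanner tables deposited by the authors hold a median foreground intensity per probe, 1 table per array. Excluded spots, which were left out, numbered 12, 99 and 17 on the E6.5 arrays (replicates 2, 3 and 6) and 4, 16 and 15 on the E5.5 arrays. A deposited series table holds intensity values that follow the scanner medians linearly on each array after a constant was taken off, with low values blank. It was used as an alternative only. Its column medians were 3499, 3417 and 2589 at E6.5 and 3243, 2818 and 2985 at E5.5, so it is on a linear scale and not centred by probe, and the choice of the constants is unknown.

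Per array, normexp with an offset of 50 corrected the medians of all spots. The log2 values of the 657 mature probes were then quantile-normalised over the 6 arrays (limma 3.58.1, R 4.3.3). No local background was used. A probe was tested where, on at least 3 of 6 arrays, it lay above the 95th percentile of the array's 7 negative controls. The paired limma fit held stage and replicate number, with adjusted p under 0.05 as the threshold. The difference between chips was an interaction term over all male arrays of both stages. The probe gga-miR-107 has no value on E6.5 replicate 2. Precision is limited by the number of arrays. The procedure was tested on simulated data.

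Pairing followed the replicate numbers of the labels. In deviations from the stage means each array correlated best with its own number (0.71, 0.76 and 0.31). In level, E6.5 replicate 3 correlated best with E5.5 replicate 6 (0.88, against 0.82 with its own number). These are the values that the fit uses, so they describe the pairing and do not test it. Named probes were those of lowest p in each direction, those with the largest difference shared by all pairs, the brightest chicken probes, those of largest pair spread, the leading members of each miRNA list and all miR-202, miR-199 and miR-214 probes. The samples, lists and rule were chosen with earlier results of these data known. Neighbouring genes were read from the GRCg7b gene table, where 117 of 122 chicken probes have a gene of their name. Alternatives covered background correction, scaling, filters, mismatch subtraction, the replicate and array position blocks, wider sets of arrays and leaving out each replicate.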

Additional observations from a re-analysis of the deposited data

Results flagged for a closer look

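Hairpin tiling probes, which tile miRNA precursors and enter no comparison above, gave signal on these arrays. Of the 74 such probes, 11 were brighter than the level set by the negative controls on all 6 male arrays. None of the 657 mismatch probes did so on all 6. Whether the 11 read precursors or mature miRNAs was not tested.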

How the results depend on the processing

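The stage comparison gave 0 calls under the paired fit and under every alternative but 1. Subtracting the mismatch signal gave 3 (dre-miR-23a 1.28, dre-miR-23b 1.19 and gga-miR-30c 1.17, adjusted p between 0.022 and 0.025), all single-spot probes. This setting had no quantile normalisation, and 16 of its 17 probes with an unadjusted p under 0.05 lay above 0. Its calls rested on 1 pooled variance and not on the spread of each probe. Without the replicate block the stage comparison gave 0, with a smallest adjusted p of 0.999 against 0.486 with the block, and none at an unadjusted p under 0.05 against 9. The block changed no call. Leaving out each replicate in turn gave 0 calls each time, as did restricting the test to probes of 2 spots and the line on G and C content, both chosen after seeing the data. Scaling to the 75th percentile moved the median difference over all tested probes to 0.26, against 0.09, and put 15 of the 16 probes with an unadjusted p under 0.05 above 0. No filter on dim probes moved the median to -0.0075, and leaving out replicate 2 moved it to -0.034. Calls between replicate numbers, 34 in the paired fit, were 0 with the series table values (smallest adjusted p of the F-test 0.052) and 0 without the filter on dim probes (0.058). They were 12 of 36 with probes above the negative controls on all 6 arrays. They were 0 without replicate 2, 0 without replicate 3 and 30 without replicate 6, each with 1 pair fewer in the fit. The causes of these changes were not tested. The difference between chips gave 0 calls under all alternatives run.

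The differences of some named probes turned sign, none of them called. The causes were not tested. With 75th percentile scaling, the values were dre-miR-10a 0.17, dre-miR-26b 0.085, gga-miR-16 0.13, gga-miR-221 0.20, gga-miR-26a 0.091, hsa-miR-181d 0.020 and mmu-let-7d* 0.017. With the series table values, the values were dre-miR-26b 0.067, gga-miR-16 0.18, gga-miR-221 0.087 and mmu-let-7d* 0.49. In the fit of 25 arrays with a chip term, the values were dre-miR-10a 0.011, dre-miR-130b -0.14, dre-miR-26b 0.022, gga-let-7b -0.031, gga-miR-130a -0.017, gga-miR-16 0.045, gga-miR-26a 0.063 and mmu-let-7d* 0.51. In the fit of 18 arrays, the value was gga-miR-16 2.5e-05. With array position as a block, the values were dre-miR-130a -0.13, dre-miR-130b -0.21, dre-miR-181c -0.14, dre-miR-202 -0.068, dre-miR-23a -0.13, gga-let-7b -0.18, gga-miR-106 -0.0028, gga-miR-124a -0.37, gga-miR-130a -0.50, gga-miR-181b -0.0050, gga-miR-20a -0.20, gga-miR-222b -0.062, gga-miR-26a 0.059, mmu-let-7d* 0.71, mmu-miR-221 -0.32 and mmu-miR-292-5p 0.33. With mismatch signal subtracted, the values were dre-miR-10a 0.079, dre-miR-26b 0.089, gga-miR-130b 0.00058, gga-miR-16 0.11, gga-miR-221 0.13, gga-miR-26a 0.071 and mmu-let-7d* 0.011. With the line on G and C content taken off, the values were dre-miR-130b -0.11, gga-miR-130a -0.068, gga-miR-15b -0.057 and mmu-miR-221 -0.058. With 1 replicate left out, the ranges were dre-miR-10a -0.15 to 0.20, dre-miR-130b -0.28 to 0.34, dre-miR-145 -0.18 to 0.35, dre-miR-181c -0.057 to 0.27, dre-miR-26b -0.21 to 0.17, gga-let-7b -0.026 to 0.31, gga-miR-130a -0.037 to 0.56, gga-miR-15b -0.16 to 0.26, gga-miR-16 -0.12 to 0.16, gga-miR-181a -0.084 to 0.27, gga-miR-221 -0.20 to 0.11, gga-miR-222a -0.0060 to 0.63, gga-miR-222b -0.067 to 0.58, gga-miR-26a -0.61 to 0.085, hsa-miR-145 -0.12 to 0.33, mmu-let-7d* -0.47 to 0.20, mmu-miR-221 -0.040 to 0.11, mmu-miR-290 -0.80 to 0.054 and mmu-miR-292-5p -0.68 to 0.16. Intensities close to the floor on most probes limit all of these values.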
